A study of Mus musculus with 38 samples.

Results

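A set of 7 genes for proteins that the mouse oocyte secretes, Gdf9, Bmp15, Bmp6, Fgf8, Oosp1, Rln3 and Plat, was followed through polysome and non-polysome RNA of oocytes and early embryos. They were chosen by symbol, and each had 1 row among the 23125 genes of the deposited table, so that 7 of 7 were found. Lysates of cycloheximide-treated ICR mouse oocytes and embryos had been separated on sucrose gradients into 10 fractions, of which the 5 lighter were pooled as non-polysome and the 5 heavier as polysome RNA before sequencing. Fully grown germinal vesicle (GV) oocytes, arrested in meiotic prophase, came from hormone-primed females, and metaphase II (MII) oocytes were denuded GV oocytes matured in vitro for 12 h. Zygotes came from oviducts of mated females and two-cell embryos grew from them in culture, both collected in interphase, while zygote M and two-cell M were embryos arrested in M-phase with nocodazole, a drug that depolymerises microtubules. Interphase zygotes were collected at isolation. In the embryo, M-phase therefore cannot be told apart from the drug or, in the zygote, from later collection. Each of the 12 groups (6 stages, 2 fractions) held 3 libraries described as biological triplicates, and p-values measure the spread between these libraries only.

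GDF9 and BMP15 are ligands of the TGF-beta superfamily that the oocyte sends to the granulosa and cumulus cells around it, where they act through type I and type II receptor kinases and Smad proteins and sustain follicle growth and fertility. BMP6 belongs to the bone morphogenetic protein branch of the same superfamily. FGF8, a fibroblast growth factor, acts beside BMP15 to raise glycolysis in cumulus cells, which the mouse oocyte itself performs poorly. OOSP1 is a small oocyte secreted protein, relaxin-3 (Rln3) is a peptide hormone of the relaxin family best known from the brain, and tissue-type plasminogen activator (Plat) is a secreted serine protease. Plat messenger RNA (mRNA) is a textbook case of a message stored silent in the GV oocyte and translated after meiosis resumes, when cytoplasmic polyadenylation lengthens its tail. A U-rich cytoplasmic polyadenylation element, written TTTTAT or TTTTAAT in DNA letters, directs that step together with the polyadenylation signal AATAAA.

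In GRCm38 the genes lie on chromosome 11 (Gdf9, 53431023 to 53437904, plus strand), X (Bmp15, 6314107 to 6320721, minus), 13 (Bmp6, 38345107 to 38500302, plus), 19 (Fgf8, 45736798 to 45742915, minus), 19 (Oosp1, 11667460 to 11691150, minus) and 8 (Rln3, 84042929 to 84045000, minus, and Plat, 22757727 to 22782844, plus). The last 150 bases of the longest coding GENCODE transcript of each gene were searched, on the transcript's own strand, for the 3 motifs of this polyadenylation step. The windows below lie in the 3′ untranslated region and last exon, with the motifs in capitals, and are shown because they place the elements in the messages whose polysome levels are compared.
Gdf9, chr11:53437861-53437890, plus strand: tgtggTTTTATgtgacggaagAATAAActg
Plat, chr8:22782749-22782778, plus strand: atttataTTTTAATctattttagtttttac
Plat, chr8:22782804-22782833, plus strand: ctgtacttaaatAATAAAttcagaggtatt
Oosp1, chr19:11667557-11667586, minus strand: tccctgcTTTTAATtgtataaaatctgatt
Bmp15, chrX:6314117-6314146, minus strand: ttaatcttaaagAATAAAttttcatttatg
In Plat, TTTTAAT began 125 and 89 bases before the transcript end and AATAAA 29 bases before it. In Gdf9, TTTTAT began 39 and AATAAA 23 bases before the end. Oosp1 held TTTTAAT at 120 and AATAAA at 93 bases, Bmp6 held TTTTAT at 79 bases without AATAAA, and Bmp15 held AATAAA at 28 bases without either U-rich motif. None of the 3 motifs was in this window of Fgf8 or Rln3. Among 6327 transcripts of the tested genes the same window held TTTTAT in 18.1%, TTTTAAT in 7.0%, either in 23.6% and AATAAA in 67.4% (TTTTAAT and AATAAA can share letters), so these matches are descriptions and not evidence of use.

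The values are normalized FPKM, fragments scaled to gene length and library depth. A gene without a fragment stands at 0.01, and the steps between low values follow the whole genomic span of a gene, introns included, as its length. Long genes are therefore understated, Bmp6 most, whose span is 43.2 times its transcript length. Levels are compared between genes only after rescaling to the transcript, and are then called FPKM per transcript kb. The inferred depth was 8.49e+06 to 2.67e+07 fragments per library, lowest in two-cell M. A change counted as called where limma, fitted to log2 FPKM of 7967 tested genes in all 36 libraries, gave a Benjamini-Hochberg adjusted p under 0.05 and a fold change beyond 2. All 7 members were among the tested genes. FPKM is a share of each library's RNA, so a fall of a message and a rise of the other RNA cannot be told apart. It does not measure RNA per cell or the number of cells. The two-cell M libraries stood apart. The SD of log2 FPKM within a group had a median over the members of 2.76 in two-cell M polysomes. In the other polysome groups this median ran from 0.129 (zygote) to 0.432 (GV). In the non-polysome fraction it was 1.36 in two-cell M and ran from 0.225 (zygote) to 0.844 (two-cell) elsewhere. The fit shares 1 spread per gene between all groups. Summed markers of the oocyte were at a median of 6071 FPKM in GV polysomes, 341 in zygote M and only 79.4 in two-cell M. Summed markers of granulosa and cumulus cells (13 of 15 in the table) stayed under 1 FPKM in every GV, MII, zygote and zygote M library and ran from 0.132 to 49.7 in the two-cell and two-cell M libraries. Blood cell markers (4 of 7 in the table, Hba-a1 foremost) summed to between 24.4 and 162 FPKM in all two-cell and two-cell M libraries except 1 two-cell M non-polysome library, and to at most 1.33 elsewhere. Oviduct epithelium markers summed to at most 6.89 FPKM before the two-cell stage and to between 0.49 and 31.2 from it on. Few of these markers exceeded 1 FPKM in any library. In two-cell M they were 1 of 13 for granulosa and cumulus cells, 2 of 4 for blood and 1 of 5 for oviduct, in each fraction. In two-cell they were 2, 1 and 2 in polysomes and 4, 2 and 3 in the non-polysome fraction. Whether other cells were present, and their part in the two-cell results below, was not tested. Markers of the two-cell embryo summed to between 126 and 740 FPKM in the two-cell libraries, while the GV libraries, which hold no embryo, reached 323 and the MII libraries 107. In two-cell M, where the members were lowest, these markers summed to between 9.30 and 129.5 FPKM in polysomes (126 to 191 in two-cell) and between 90.7 and 476 in the non-polysome fraction (445 to 740 in two-cell).

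**Figure D1:**
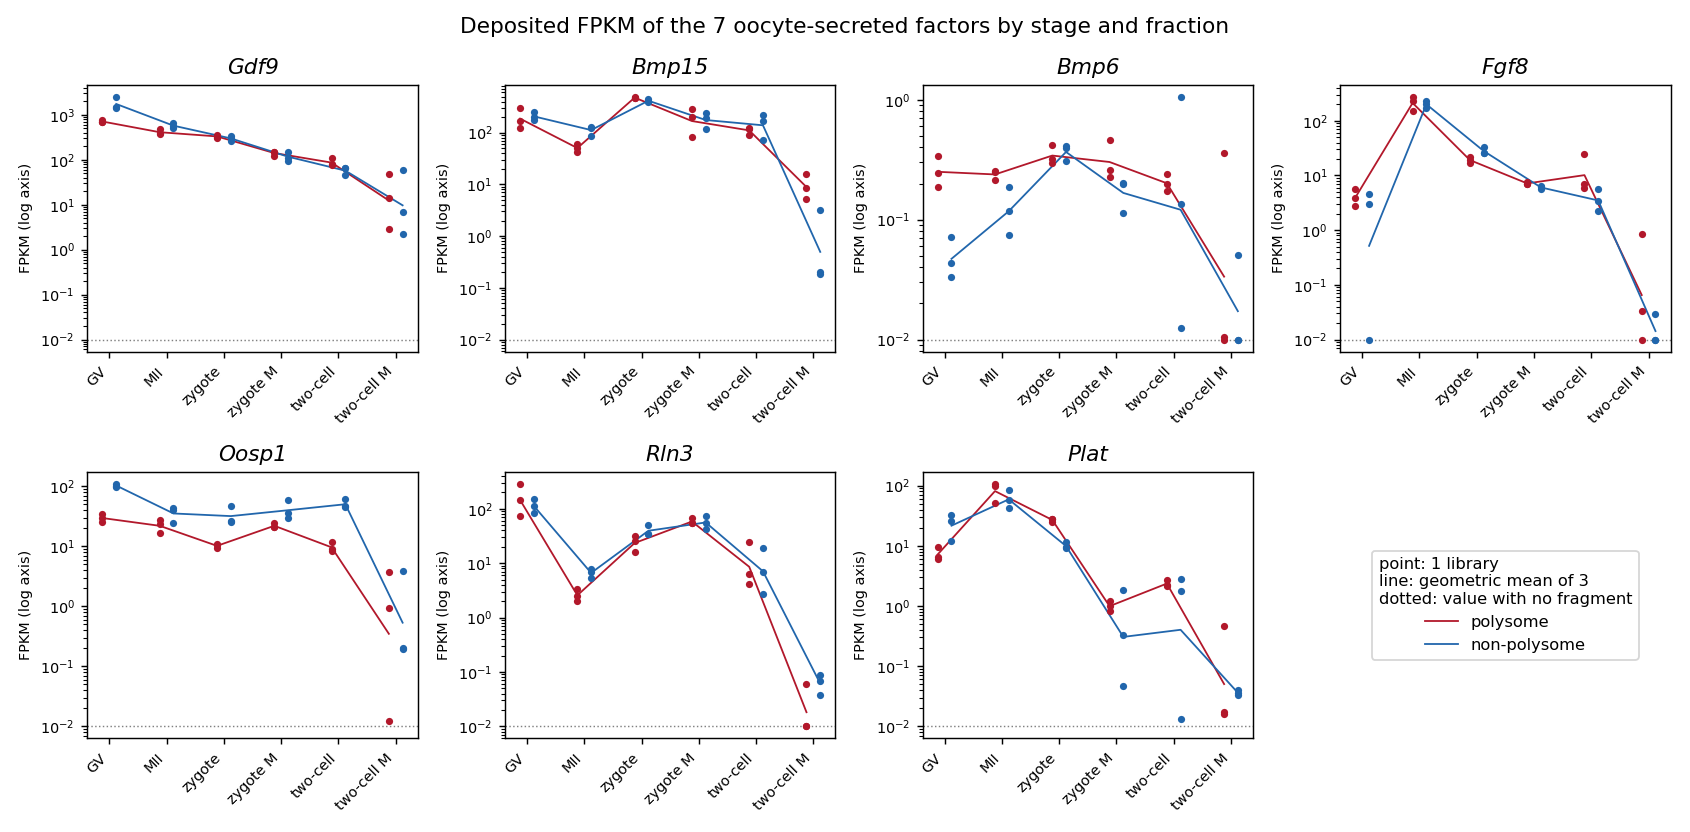
Deposited FPKM of each member on a log axis, by stage, in polysome (red) and non-polysome (blue) libraries. Points are single libraries, lines join geometric means of 3 libraries, and the dotted line marks 0.01, the value with no fragment. Fgf8 and Plat peak in MII, Rln3 dips there, and all members are lowest in two-cell M.

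Per transcript kb, Gdf9 was the most abundant member in polysomes at all 6 stages. It fell from 2728 ± 144 FPKM per transcript kb in GV to 1584 ± 201 in MII, 1274 ± 115 in zygotes, 544 ± 67.5 in zygote M, 336 ± 64.9 in two-cell and finally 81.7 ± 88.2 in two-cell M (SD, n = 3 each). Its libraries did not overlap with those of the next member in GV, MII, zygote and two-cell, and overlapped with Oosp1 in both M-phases of the embryo. In the deposited FPKM, not rescaled to the transcript, the order differed, with Bmp15 above Gdf9 in polysomes of the zygote (477 against 332 FPKM), zygote M (190.5 against 142) and two-cell (112 against 87.5). Per transcript kb, the member ranked below Gdf9 changed from stage to stage. It was Oosp1 in GV (726 ± 113), Fgf8 in MII (1144 ± 325), Bmp15 in the zygote (1031 ± 24.0), Oosp1 in zygote M (536 ± 50.1), Bmp15 in two-cell (242 ± 37.8) and Oosp1 in two-cell M (37.4 ± 46.6). Bmp6 was the least abundant member in GV, zygote and two-cell polysomes, between 8.33 ± 1.44 and 14.5 ± 2.71 FPKM per transcript kb. In MII the lowest place was held by Rln3 (8.55 ± 2.28) and in zygote M by Plat (9.88 ± 1.92), each overlapping with Bmp6, as Bmp6 did with Fgf8 in GV. In two-cell M polysomes no neighbours in the order were separated beyond the overlap of their libraries.

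**Figure D2:**
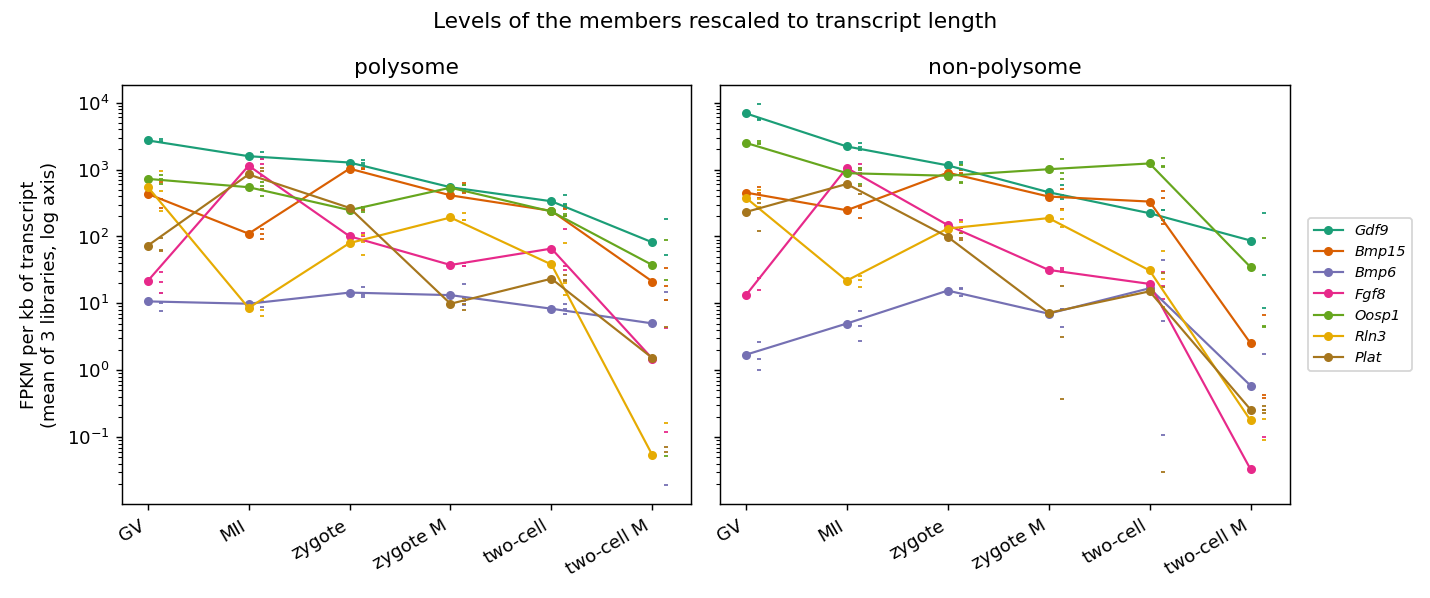
FPKM per kb of transcript of the 7 members on a log axis, by stage, in polysomes (left) and the non-polysome fraction (right). Circles are means of 3 libraries and short bars single libraries; the 9 library values with no fragment are not drawn. Gdf9 leads the polysome panel at each stage, from 2728 in GV to 81.7 in two-cell M.

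Polysome levels of 6 members differed between stages by limma's moderated F-test (adjusted p between 1.99e-13 for Rln3 and 0.000204 for Oosp1). Bmp6 did not pass (limma adjusted p = 0.0917). In the non-polysome fraction 7 of 7 passed, Bmp6 with the largest adjusted p (0.0168, limma). Over all tested genes 5012 of 7967 passed in polysomes, and 6239 did so in the non-polysome fraction.

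In meiotic maturation, MII against GV, the 2 members called in polysomes went in opposite directions. Fgf8, the cumulus growth factor, rose 53.7-fold and Rln3 fell 56.7-fold, and these 2 of 7 members were called, beside 6.11% of all tested genes. By the paper's methods the libraries were made with a SMART-seq kit. The part of tail length in how much of a message they captured was not tested. Fgf8 polysome libraries read 3.93, 5.72 and 2.74 FPKM in GV and 272, 233 and 150 in MII (log2 fold change 5.75 ± 1.40 SE, limma adjusted p = 0.00988). All MII libraries lay far above all GV libraries. Rln3 read 146, 289 and 73.1 FPKM in GV polysomes and 3.38, 2.48 and 2.01 in MII (-5.82 ± 0.71, limma adjusted p = 2.43e-06). Its GV libraries were spread widely and all lay above every MII library.

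Plat, the protease with the stored message, read 6.43, 6.04 and 9.51 FPKM in GV polysomes and 96.7, 107 and 51.3 in MII. The groups did not overlap, yet the log2 fold change of 3.50 ± 1.34 was not called (limma adjusted p = 0.137). It was called in a fit of the 2 groups alone (limma adjusted p = 0.00216) and by limma-voom on fragments recovered from the FPKM (adjusted p = 0.00032). It was not called in the fit without the two-cell M libraries (limma adjusted p = 0.0702). Bmp15 read 171, 125 and 305 FPKM in GV polysomes and 51.1, 59.6 and 42.2 in MII (-1.89 ± 0.67, limma adjusted p = 0.101; 0.0143 in the fit of the 2 groups). Gdf9 read 677, 704 and 751 FPKM in GV and 386, 379 and 473 in MII, again without overlap and uncalled (-0.79 ± 0.73, limma adjusted p = 0.642). These GV libraries of Bmp15 and Gdf9 all lay above their MII libraries. Over all genes, 47.5% had groups without overlap in this comparison. The fit of the 2 groups called 27.1% of all genes, and limma-voom called 5.55% of the genes it tested. Oosp1 (-0.43 ± 1.15) and Bmp6 (-0.07 ± 1.14) had overlapping groups.

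In the non-polysome fraction the same pair was called between MII and GV, beside 16.6% of all genes, and 7 of 7 members had groups that did not overlap, as did 47.6% of all genes. Fgf8 read 4.55, 0.01 and 3.03 FPKM in GV and 231, 204 and 172 in MII (8.60 ± 1.40, limma adjusted p = 9.3e-05). GV replicate B held no fragment of Fgf8, and without it the change was 5.76 and still called (limma adjusted p = 0.000394), while it was 10.2 without replicate A and 9.88 without C. Rln3 read 112, 152 and 85.0 FPKM in GV and 6.90, 5.35 and 7.87 in MII (-4.10 ± 0.71, limma adjusted p = 0.000198). Gdf9 was lower in this fraction too, 1504, 1418 and 2487 FPKM in GV against 513, 660 and 558 in MII (-1.60 ± 0.73, limma adjusted p = 0.138; 0.00764 in the fit of the 2 groups). Oosp1 read 101, 110 and 98.1 FPKM in GV and 40.3, 24.8 and 43.7 in MII (-1.55 ± 1.15, limma adjusted p = 0.401; 0.00927 in the fit of the 2 groups). Plat read 26.1, 31.8 and 12 FPKM in GV and 83.0, 57.9 and 42.9 in MII (1.45 ± 1.34, limma adjusted p = 0.51; 0.0592 in the fit of the 2 groups). Limma-voom also called Gdf9 (adjusted p = 2.93e-07), Oosp1 (0.00102) and Plat (0.0277), beside 15.9% of the genes it tested. The fit of the 2 groups called 22.7% of all genes.

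**Figure D3:**
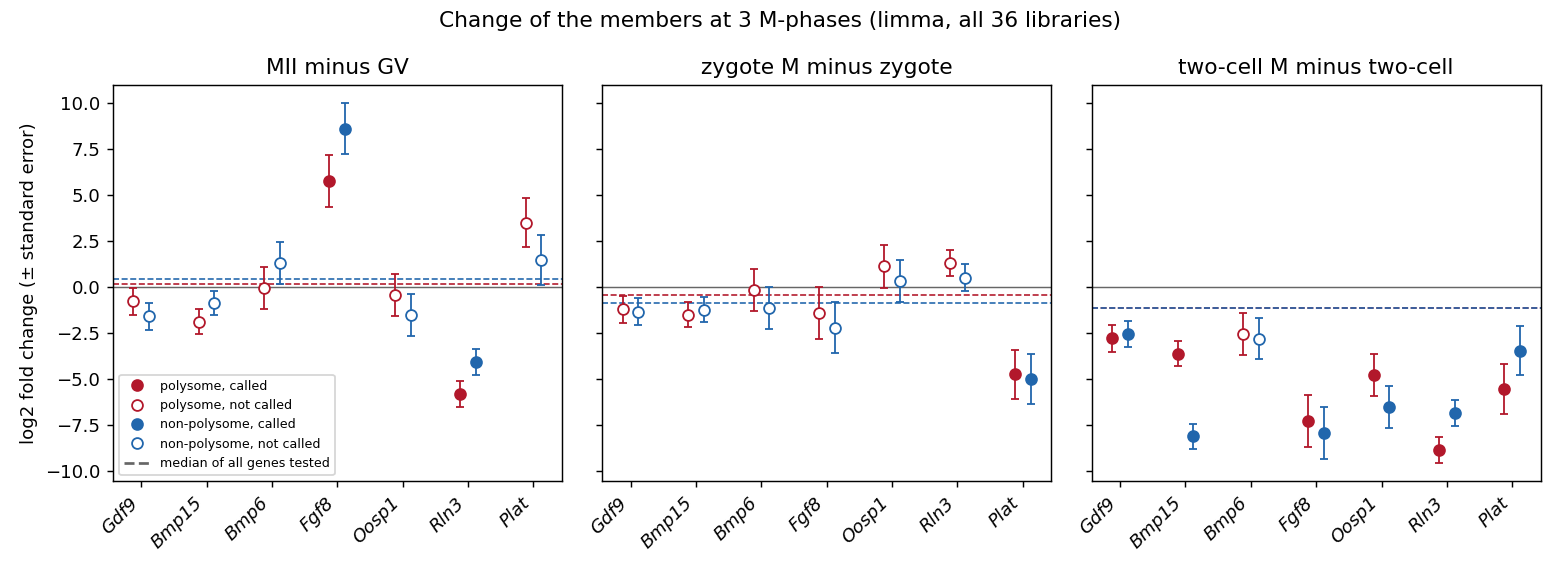
Log2 fold change of each member at the 3 M-phases, in polysomes (red) and the non-polysome fraction (blue). Bars are standard errors from limma, filled circles are called members and dashed lines the median of all tested genes (the lines coincide in the right panel). The polysome change of Fgf8 goes from 5.75 in MII minus GV to -7.29 in two-cell M minus two-cell.

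At the first mitosis, zygote M against zygote, Plat was the only member called in polysomes (1 of 7, beside 5.75% of all genes), and it fell 27.1-fold. Plat polysome libraries read 25.1, 28.0 and 27.5 FPKM in zygotes and 1.2, 0.819 and 0.987 in zygote M (-4.76 ± 1.34, limma adjusted p = 0.0288). The groups were far apart and each was tight. The call was lost with any of the 6 libraries left out (limma adjusted p 0.0718 to 0.104) while the fold change stayed between -4.90 and -4.62. In the fit of the 2 groups alone the adjusted p was 0.000182 (limma).

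Of the other members, 5 had zygote M and zygote polysome libraries that did not overlap, none of them called in the fit of all libraries and all of them called in the fit of the 2 groups. Over all genes, 56.5% did not overlap and 33.1% were called in that fit. Limma-voom, which called 4.62% of the genes it tested, called Plat and Bmp15 (adjusted p = 0.00342) and did not call Gdf9 (0.0514), Rln3 (0.281), Oosp1 (0.342) or Fgf8 (0.505). Gdf9 read 364, 304 and 329 FPKM in zygotes and 153, 122 and 151 in zygote M (-1.23 ± 0.73; limma adjusted p = 0.45, and 0.00221 in the fit of the 2 groups). Bmp15 read 489, 467 and 475 FPKM in zygotes, its highest polysome level at any stage, and 204, 81.3 and 286 in zygote M (-1.50 ± 0.67; limma adjusted p = 0.241, and 0.0416 in the fit of the 2 groups). Fgf8 read 16.9, 19.2 and 21.7 FPKM against 7.0, 6.87 and 7.65 (-1.42 ± 1.40; limma adjusted p = 0.778, and 0.0014 in the fit of the 2 groups). These 3 ligands were lower in M-phase, and the next pair was higher. Oosp1 read 10.3, 9.41 and 10.8 FPKM in zygotes and 24.4, 20.7 and 21.0 in zygote M (1.11 ± 1.15; limma adjusted p = 0.793, and 0.00238 in the fit of the 2 groups). Rln3 read 16.1, 25.4 and 31.8 FPKM in zygotes and 53.8, 68.3 and 54.3 in zygote M (1.31 ± 0.71; limma adjusted p = 0.392, and 0.0123 in the fit of the 2 groups). Bmp6 was at 0.346 ± 0.063 and 0.318 ± 0.128 FPKM with overlap. The median over all tested genes was -0.43, so Oosp1 and Rln3 lay on the other side of zero from it.

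Non-polysome Plat was also the only member called at this step (1 of 7, beside 10.4% of all genes). It read 9.03, 11.4 and 9.42 FPKM in zygotes and 0.332, 1.83 and 0.047 in zygote M (-5.02 ± 1.34, limma adjusted p = 0.0152). The zygote M values were scattered, and the call was lost without zygote M replicate C (-3.67, limma adjusted p = 0.101) or zygote replicate C (-4.92, limma adjusted p = 0.0535), and in the fit of the 2 groups (limma adjusted p = 0.0599). Without zygote M replicate B the change was -6.31 and called (limma adjusted p = 0.00433), and limma-voom also called it (adjusted p = 0.00935). Non-polysome Gdf9 went from 301 ± 38.5 to 119 ± 29.5 FPKM and Bmp15 from 416 ± 31.2 to 183 ± 59.3 (SD, n = 3), both without overlap and uncalled (-1.35 and -1.24). Both were called in the fit of the 2 groups (limma adjusted p = 0.0158 and 0.0376, beside 10.5% of all genes). Limma-voom (adjusted p = 0.0219 and 0.00987, beside 12.6%) and the fit without two-cell M (beside 16.2%) also called both. Over all genes, 36.6% had groups without overlap in this comparison. Fgf8 (-2.21) was called in the fit of the 2 groups and not by limma-voom (adjusted p = 0.108).

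At the second mitosis, two-cell M against two-cell, most members fell. In polysomes 6 of 7 members were called and all 6 were lower, beside 36.3% of all genes and an all-gene median log2 fold change of -1.17. Gdf9 read 75.7, 107 and 80.1 FPKM in two-cell against 13.9, 2.89 and 47.1 in two-cell M (-2.81 ± 0.73, limma adjusted p = 0.00343). The two-cell M libraries were widely scattered and all lay below the two-cell libraries. Without two-cell M replicate B the change was -1.76 and no longer called (limma adjusted p = 0.0553). Bmp15 read 125, 92.1 and 118 FPKM against 15.7, 5.20 and 8.57 (-3.64 ± 0.67, limma adjusted p = 0.000121). Oosp1 read 8.92, 8.42 and 11.8 FPKM against 0.0122, 0.936 and 3.69 (-4.79 ± 1.15, limma adjusted p = 0.00179), and Plat 2.70, 2.16 and 2.22 against 0.0161, 0.458 and 0.0172 (-5.55 ± 1.34, limma adjusted p = 0.00194). In the fit of the 2 groups Gdf9 and Oosp1 were not called (limma adjusted p = 0.0973 and 0.152). Oosp1 had 1 low library, and without it, two-cell M replicate A, its change was -2.37 (limma adjusted p = 0.0227), while without replicate C it was -6.49. Plat ran from -7.14 without two-cell M replicate B to -4.73 without A, and Gdf9 reached -3.77 without C, all still called.

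Fgf8 and Rln3 nearly vanished from two-cell M polysomes. Rln3 read 4.14, 24.7 and 6.20 FPKM in two-cell polysomes, and in two-cell M its 3 libraries held 2 fragments in all, with none in 2 of them. The ratio of fragments, scaled to depth, was 555 (95% counting interval 153 to 4587), which covers counting error only. Fgf8 read 6.0, 24.8 and 7.03 FPKM against 0.842, 0.0327 and 0.01, or 4756 fragments in two-cell against 101 in two-cell M. The fitted changes of -8.89 for Rln3 (limma adjusted p = 1.96e-10) and -7.29 for Fgf8 (limma adjusted p = 0.000202) rest on the added 0.01 where a library held no fragment, and are not bounds. Without single libraries Rln3 ran from -9.75 (two-cell M replicate A) to -8.12 (two-cell replicate B) and Fgf8 from -9.13 (two-cell M replicate A) to -5.93 (two-cell M replicate C), all called. Bmp6 was not called (-2.59 ± 1.14, limma adjusted p = 0.0762), with 601 of its 602 two-cell M fragments in 1 library, replicate C. Without that library the change was -4.30 and called (limma adjusted p = 0.00239), without two-cell M replicate A or B it was -1.72 or -1.75, and limma-voom called it (-5.79, adjusted p = 0.014).

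Non-polysome levels fell as well, with 6 of 7 members called lower beside 36.1% of all genes. Bmp15 went from 71.8, 219 and 171 FPKM to 3.17, 0.206 and 0.186 (-8.13 ± 0.67, limma adjusted p = 1.41e-10). Its 3 two-cell M libraries held 286 fragments against 51731 in two-cell. Oosp1 read 60.4, 46.9 and 44.6 FPKM against 0.193, 0.199 and 3.93 (-6.56 ± 1.15, limma adjusted p = 4.65e-05). Non-polysome Fgf8 held 1145 fragments in two-cell against 2 in two-cell M (depth-scaled ratio 408, 95% counting interval 113 to 3370), and Rln3 911 against 4. The calls of Gdf9 (-2.56, limma adjusted p = 0.0066) and Plat (-3.48, limma adjusted p = 0.0428) came with overlapping groups. Neither was called in the fit of the 2 groups (limma adjusted p = 0.28 and 0.438) or by limma-voom (adjusted p = 0.107 and 0.228). Gdf9 was lost without two-cell M replicate B (-1.49, limma adjusted p = 0.0909), and Plat without any of 5 of the 6 libraries (-3.54 to -2.07, limma adjusted p 0.0745 to 0.278). With single libraries left out, Bmp15 ran from -9.47 (two-cell M replicate A) to -7.43 (C), Oosp1 from -8.00 (two-cell M replicate C) to -5.83 (A) and Rln3 from -7.56 (two-cell replicate C) to -6.16 (B), all called. Gdf9 reached -3.86 without two-cell M replicate C and Plat -5.95 without two-cell replicate B. Bmp6 (-2.81, limma adjusted p = 0.0542) was not called, and limma-voom called it (adjusted p = 0.0353). It ran from -4.45 without two-cell replicate C to -1.25 without B. The part of any RNA of other cell types and of the lower depth of two-cell M in these changes was not tested.

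The interphase embryos were set against the GV oocyte. In zygote polysomes Rln3 was the only member called (1 of 7, beside 5.61% of all genes), 6.19-fold lower at 16.1, 25.4 and 31.8 FPKM (-2.63 ± 0.71, limma adjusted p = 0.025). The call was lost without GV replicate A or B or zygote replicate B or C (limma adjusted p 0.0751 to 0.196). Of 7 members, 6 had groups without overlap (as did 54.4% of all genes), and the fit of the 2 groups called those 6 (beside 31%): Bmp15 (1.35), Fgf8 (2.28) and Plat (1.90) higher, Gdf9 (-1.10), Oosp1 (-1.54) and Rln3 lower. Limma-voom called 3 of 7 (beside 4.16%), namely Bmp15, Gdf9 and Rln3, and did not call Plat (adjusted p = 0.105), Oosp1 (0.111) or Fgf8 (0.226). In two-cell polysomes Gdf9 and Rln3 were called lower than in GV (2 of 7, beside 16.7% of all genes), Gdf9 by 8.21-fold (-3.04 ± 0.73, limma adjusted p = 0.00401) and Rln3 by 16.9-fold (-4.08 ± 0.71, limma adjusted p = 0.000186; -4.84 without two-cell replicate B). Bmp15 had overlapping groups in that comparison (-0.75 ± 0.67). Oosp1 (-1.62) was called in the fit of the 2 groups (limma adjusted p = 0.0159) and by limma-voom (0.0413), and Plat (-1.61) in the former alone (limma adjusted p = 0.0323).

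In the non-polysome fraction 2 of 7 members were called between zygote and GV, beside 13.9% of all genes. Gdf9 was 5.83-fold lower (-2.54 ± 0.73, limma adjusted p = 0.0179), and this was lost without GV replicate C or zygote replicate C or D (limma adjusted p 0.0519 to 0.0661). Fgf8 was higher (5.76 ± 1.40, limma adjusted p = 0.00591). Without GV replicate B, the library with no Fgf8 fragment, the change was 2.92 and uncalled (limma adjusted p = 0.0832). The fit of the 2 groups did not call Fgf8 (limma adjusted p = 0.115). That fit called 5 of 7 members (beside 21.3% of all genes) and limma-voom 4 (beside 15.4%). Both called Oosp1 lower (-1.69, adjusted p = 0.00928 by limma and 0.000813 by limma-voom). Rln3 was also called lower by both (-1.52, adjusted p = 0.0149 by limma and 0.041 by limma-voom). Between two-cell and GV, 3 of 7 members were called lower, beside 29.7% of all genes. These were Gdf9 (-4.93 ± 0.73, limma adjusted p = 8e-06), Rln3 (-4.00 ± 0.71, limma adjusted p = 0.000101) and Plat (-5.75 ± 1.34, limma adjusted p = 0.00184). The Plat change included a two-cell library at 0.013 FPKM, without which (replicate B) it was -3.27 (limma adjusted p = 0.0259), and it was not called in the fit of the 2 groups (limma adjusted p = 0.141). Rln3 ran from -4.70 to -3.30 without two-cell replicate B or C.

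The embryonic M-phases were then set against MII. In zygote M polysomes 3 of 7 members were called, beside 12.4% of all genes. Plat was 81.7-fold lower (-6.35 ± 1.34, limma adjusted p = 0.00148) and Fgf8 29.6-fold lower (-4.89 ± 1.40, limma adjusted p = 0.0192), while Rln3 was 22.8-fold higher (4.51 ± 0.71, limma adjusted p = 5.3e-05). The Fgf8 call was lost without any 1 of 5 of the 6 libraries (limma adjusted p 0.0501 to 0.0699, changes -4.94 to -4.71). Bmp15 (1.74 ± 0.67, limma adjusted p = 0.0936) and Gdf9 (-1.54 ± 0.73, limma adjusted p = 0.189) had groups without overlap (as did 57.2% of all genes) and were called in the fit of the 2 groups (beside 40.6%) and by limma-voom (adjusted p = 0.0198 and 0.00503, beside 10.2%). Oosp1 did not separate the groups, at 22.4 ± 5.32 FPKM in MII and 22.0 ± 2.05 in zygote M. In the non-polysome fraction 4 of 7 were called, beside 19.8% of all genes. Plat (-7.59), Fgf8 (-5.05) and Gdf9 (-2.29 ± 0.73, limma adjusted p = 0.0251) were lower and Rln3 (3.08) higher. The Plat change was -6.24 without zygote M replicate C and -8.885 without replicate B. Gdf9 was lost there without any of the MII libraries or without zygote M replicate B or C (limma adjusted p 0.0538 to 0.0754).

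In two-cell M, 7 of 7 members were called below MII in polysomes, beside 53% of all genes, and 7 of 7 in the non-polysome fraction, beside 61.3%. The all-gene medians were -2.64 and -3.39. The polysome changes ran from -2.51 for Bmp15 to -11.7 for Fgf8, and the non-polysome changes from -2.77 for Bmp6 to -13.8 for Fgf8, the latter resting on libraries without a fragment. Leaving out single two-cell M libraries moved called values by over 1.5 times in fold, in polysomes for Fgf8 (-13.5 to -10.3), Plat (-12.2 to -9.84), Oosp1 (-7.68 without replicate C, -3.56 without A), Gdf9 (-6.01 to -4.00) and Rln3 (-8.00), and in the non-polysome fraction for Bmp15 (-9.17 to -7.12), Oosp1 (-7.49 to -5.32), Gdf9 (-7.19 to -4.82) and Bmp6 (-3.56). The polysome change of Bmp6, -2.83 (limma adjusted p = 0.0377), came with overlapping groups. Its call was lost without two-cell M replicate A or B (-1.96 and -1.99) and with 0.1 FPKM added to each value. Without two-cell M replicate C the change was -4.54 and called (limma adjusted p = 0.00091). With quantile normalization the Bmp6 change turned positive in both fractions. In the fit of the 2 groups neither Bmp6 (limma adjusted p = 0.151) nor Oosp1 (limma adjusted p = 0.0591) was called in polysomes.

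The 2 fractions of each stage were compared as log2 of polysome over non-polysome FPKM. Libraries of the 2 fractions were scaled separately, so these values are relative to the other RNA of each fraction and not a share of a message in polysomes. The polysome and non-polysome libraries of 1 stage and letter may come from 1 gradient, which their names do not state. The fit treats them as independent, and the gradient block below assumes that they share 1. No member was called in GV (beside 4.96% of all genes), MII (0.753%), zygote (1.38%), zygote M (1.92%) or two-cell (16.1%). Bmp15 alone was called in two-cell M (1 of 7, beside 14.8%). At an unadjusted p under 0.05 limma gave 2 members in GV (Bmp6 and Fgf8, beside 19.7% of all genes), 0 in MII (6.14%), zygote (7.38%) and zygote M (12.3%), and 1 in two-cell (Oosp1, beside 30.4%). The Fgf8 value in GV went from 2.93 to 0.0893 without GV non-polysome replicate B. Limma-voom on recovered fragments called 2 in GV (Gdf9 and Oosp1, beside 5.93% of the genes it tested), 1 in two-cell (Oosp1, beside 13.4%) and 0 at the other 4 stages. With the gradient as a block, limma called 1 member in GV (Gdf9, beside 4.18% of all genes in that fit), 1 in two-cell (Oosp1, beside 16%) and 2 in two-cell M (Bmp15 and Rln3, beside 14.6%).

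Oosp1 was the member that leaned most steadily to the non-polysome fraction before two-cell M. Its mean log2 value in polysomes was the lower one at all 6 stages. In two-cell M this came with 1 polysome library, replicate A, that held 1 fragment (0.0122 FPKM). The arithmetic mean there was the higher one in polysomes (1.55 against 1.44 FPKM). Its libraries of the 2 fractions did not overlap in GV, zygote, zygote M and two-cell. The same held for 33.8%, 47.1%, 23.9% and 29.7% of all genes at these stages, in either direction. In GV and two-cell the Oosp1 values were as follows. In GV it read 25.2, 29.7 and 34.5 FPKM in polysomes against 101, 110 and 98.1 in the non-polysome fraction (-1.80 ± 1.15; limma adjusted p = 0.403, and 0.0207 in the fit of the 2 groups). In two-cell it read 8.92, 8.42 and 11.8 FPKM against 60.4, 46.9 and 44.6 (-2.39 ± 1.15; limma adjusted p = 0.158, and 0.0235 in the fit of the 2 groups). Gdf9 stood below its non-polysome level in GV without overlap (-1.30 ± 0.73, limma adjusted p = 0.337, 0.0767 in the fit of the 2 groups and 8.16e-06 by limma-voom), while the all-gene median of that contrast was 0.56. In zygotes its fractions overlapped (0.15 ± 0.73).

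Plat lay on different sides of its non-polysome level in GV and in zygotes, and limma on all libraries called neither. In GV it read 6.43, 6.04 and 9.51 FPKM in polysomes against 26.1, 31.8 and 12 in the non-polysome fraction (-1.59 ± 1.34; limma adjusted p = 0.548, and 0.105 in the fit of the 2 groups), all polysome libraries being the lower ones. In zygotes it read 25.1, 28.0 and 27.5 against 9.03, 11.4 and 9.42 (1.44 ± 1.34; limma adjusted p = 1, and 0.00275 in the fit of the 2 groups, which thus called it), all polysome libraries being the higher ones. Limma-voom called neither (adjusted p = 0.152 and 0.509). The difference between these differences was 3.03 ± 1.90 (limma adjusted p = 0.9), and it was called in the fit of the 4 groups alone. Bmp15 was 2.23-fold lower in MII polysomes than in the non-polysome fraction without overlap (-1.16 ± 0.67; limma adjusted p = 0.98, and 0.0343 in the fit of the 2 groups). In two-cell M it was higher in polysomes, 15.7, 5.20 and 8.57 FPKM against 3.17, 0.206 and 0.186 (4.16 ± 0.67, limma adjusted p = 6.36e-05), a call that the fit of the 2 groups (limma adjusted p = 0.238) and limma-voom (adjusted p = 0.0893) did not make. It ran from 3.46 to 5.50 with 1 two-cell M non-polysome library left out (replicate C and A), called each time.

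**Figure D4:**
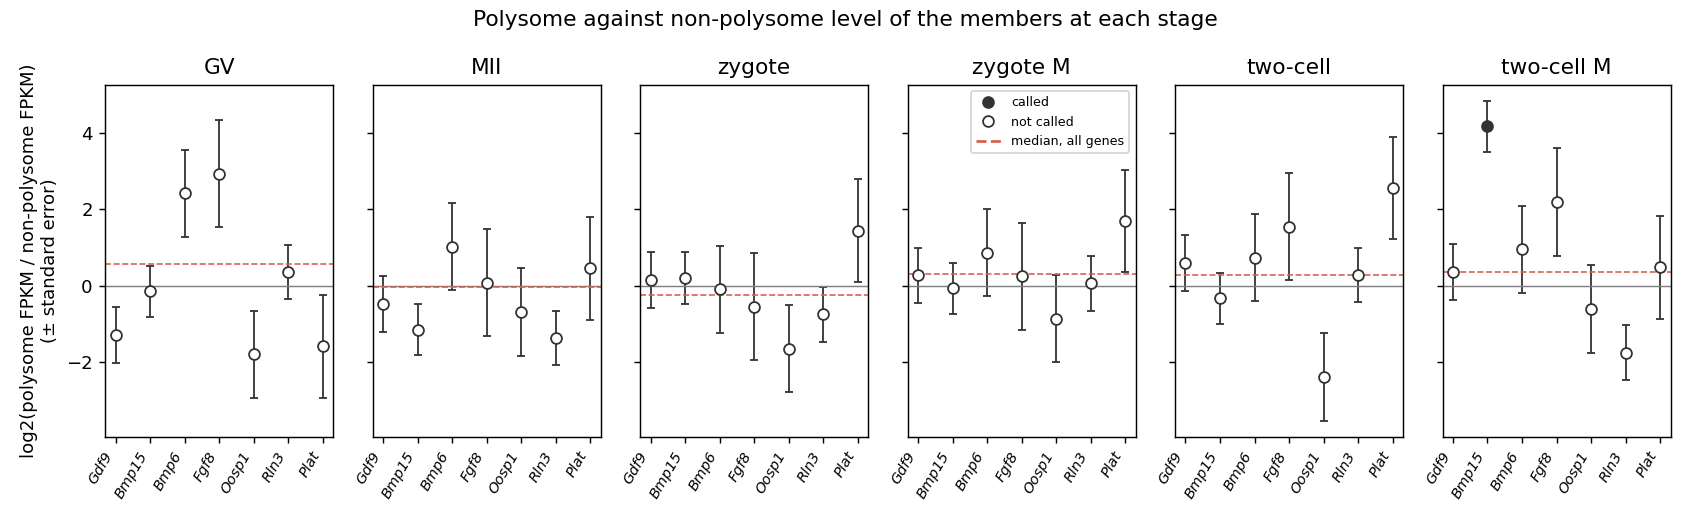
Log2 of polysome over non-polysome FPKM of each member at the 6 stages, with standard errors from limma. Filled circles are called members and the dashed line is the median of all tested genes. Oosp1 lies below zero in each panel, in two-cell M with a polysome library of 1 fragment, and Bmp15 in two-cell M (4.16) is the single filled circle.

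Whether a change between stages differed between the fractions was tested as a difference of changes, 49 in all (7 members, 7 comparisons), and 2 of them were called. The fall of Bmp15 from two-cell to two-cell M was smaller in polysomes by 4.49 ± 0.95 (limma adjusted p = 0.00329, beside 5.75% of all genes), and that from MII to two-cell M by 5.32 ± 0.95 (limma adjusted p = 0.000645, beside 3.3%). Neither was called by limma-voom or in the fit of the groups concerned, and quantile normalization lost the first of them. Without two-cell M non-polysome replicate C they were 3.79 and 4.62, and without replicate A 5.83 and 6.66. No member was called for MII minus GV (beside 0.163% of all genes), zygote M minus zygote (0.289%), zygote minus GV (0.0126%), two-cell minus GV (2.26%) or zygote M minus MII (0.427%). At an unadjusted p under 0.05 limma gave 1 member in these 5, Plat in two-cell minus GV (4.14, beside 15.3% of all genes at that p), which was 1.66 without two-cell non-polysome replicate B. The fit of the groups concerned called 1 member in zygote minus GV (Plat, beside 0.54% of all genes) and 1 in two-cell minus GV (Gdf9, beside 1.09%). With the gradient as a block, limma called 1 member in two-cell minus GV (beside 1.56% of all genes in that fit).

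Differences between the 3 M-phase steps in polysomes were added after the data had been seen. Between meiotic maturation and the first mitosis, 3 of 7 members differed (beside 9.51% of all genes). Plat and Fgf8 changed by 8.26 ± 1.90 (limma adjusted p = 0.00417) and 7.16 ± 1.98 (limma adjusted p = 0.0187) more in maturation, and Rln3 by -7.14 ± 1.0 (limma adjusted p = 1.19e-05). Between maturation and the second mitosis 3 of 7 differed (beside 23.5%), namely Fgf8 (13.03, and 11.7 to 14.9 with 1 two-cell M library left out), Plat (9.04, and 8.23 to 10.6) and Rln3 (3.06, limma adjusted p = 0.0267). The last was lost without two-cell replicate B, two-cell M replicate B or C, MII replicate A or GV replicate C (2.30 to 2.86, limma adjusted p 0.0618 to 0.101), and changed sign with 1 FPKM added. Between the first and the second mitosis 3 of 7 differed (beside 23.7%), Rln3 (10.2, and 9.44 to 11.1 with 1 library left out), Oosp1 (5.90, or 3.48 and 7.60 without two-cell M replicate A and C) and Fgf8 (5.87, or 7.71 and still called without two-cell M replicate A). The Fgf8 value was lost without two-cell replicate B, two-cell M replicate B or C or any of the 6 zygote and zygote M libraries (4.52 to 5.96, limma adjusted p 0.0507 to 0.0956). Gdf9 and Bmp15 were called in none of these 3 differences.

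Across the 36 libraries the members went together to very different degrees, given as descriptions since libraries share stage, depth and the low two-cell M level. Log2 FPKM of Gdf9 and Bmp15 had a Pearson r of 0.68 and a Spearman rho of 0.45, and Bmp15 and Rln3 an r of 0.82 and a rho of 0.64. Fgf8 and Rln3 had an r of 0.52 and a rho of 0.05. Among 5142 genes averaging 1 FPKM or more, the 3 most like Gdf9 were Zar1 (r 0.93, rho 0.96), Oosp2 (0.92, 0.89) and H1foo (0.92, 0.92), an oocyte RNA-binding factor, a relative of Oosp1 and the oocyte linker histone. The 3 most like Bmp15 were Gm8801 (0.94, 0.73), Gm13023 (0.93, 0.75) and Pkd2l2 (0.92, 0.60).

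Other genes of the members' pathways were followed in polysomes by 10 lists of 104 genes, of which 80 were in the table and 24 passed the minimum for testing. In MII against GV none of the 24 was called (beside 6.11% of all genes), the fit of those 2 groups called 3 (beside 27.1%), and limma-voom called 1 higher and 1 lower of 62 (beside 5.55%). In zygote M against zygote 1 was called (beside 5.75% of all genes), Oosp3 of the list of Oosp1 relatives (2 of 4 tested), which rose from 3.51 ± 0.965 to 25.5 ± 6.10 FPKM (2.87 ± 0.52, limma adjusted p = 0.000405). In the same comparison limma-voom called 1 higher and 3 lower of 62 (beside 4.62%). In two-cell M against two-cell 1 was called higher and 13 lower, where 36.3% of all genes were called and their median change was -1.17, and limma-voom called 4 higher and 19 lower of 62 (beside 26.5% of all genes in that fit). Both tested Oosp1 relatives fell, Oosp3 from 16.2 ± 5.46 to 1.80 ± 0.832 FPKM (-3.24 ± 0.52) and Oosp2 from 1.78 ± 0.909 to 0.477 ± 0.782 (-4.04 ± 1.18), the latter with overlapping groups. All 3 genes of FGF signalling tested by limma on FPKM fell, while limma-voom, which tested 14 of that list, called 3 higher and 5 lower. Among the 3 were the FGF inhibitors Spry4, from 76.4 ± 18.4 to 7.04 ± 10.5 FPKM (-4.91 ± 0.94), and Spry1, which had no fragment in any two-cell M library against 4.52 ± 0.949 FPKM in two-cell. Of 3 tested further TGF-beta superfamily ligands 2 fell, one being Tgfb2 (1.24 ± 0.497 to 0.203 ± 0.169 FPKM). Of 6 tested Smad proteins and regulators 2 fell, one being the Smad repressor Ski (2.70 ± 1.03 to 0.0745 ± 0.0565 FPKM). Smad4, the shared partner of the receptor-activated Smads, was the gene called higher, from 0.175 ± 0.274 to 0.562 ± 0.274 FPKM, and is named here after its values were seen. Its two-cell libraries ran over 0.01, 0.0236 and 0.490 FPKM and its two-cell M libraries over 0.377, 0.432 and 0.877, so the groups overlapped. Of 5 tested oocyte transcription factors 3 fell, among them Pou5f1 (77.7 ± 22.1 to 10.7 ± 13.6 FPKM) and Lhx8. The Lhx8 groups overlapped (0.0122 to 0.874 FPKM in two-cell, 0.01 to 0.0242 in two-cell M; limma adjusted p = 0.0477), and limma-voom called 2 genes of that list. Of 3 tested extracellular BMP and activin inhibitors 1 fell, and the tested proprotein convertase and plasminogen activation gene (1 each) were not called. No receptor of the TGF-beta superfamily (12 listed, 10 in the table) and no gene of the relaxin list (8 listed, 2 in the table) passed the minimum. Limma-voom tested 9 of those receptors and called 1 lower in two-cell M, and tested 2 relaxin genes without a call. It called 2 of 4 convertases lower in two-cell M, and 2 of 4 plasminogen activation genes lower in zygote M against zygote.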

How the data were processed

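Polysome and non-polysome RNA of mouse oocytes and embryos was sequenced in 36 libraries (12 groups of 3), and 2 further zygote samples were not analysed here. Per the study's methods, the authors trimmed reads with Trim Galore 0.4.1, mapped them to GRCm38 with STAR 2.5.3a and quantified RefSeq genes as FPKM, deposited as normalized values after use of Partek. In the deposited FPKM, 81.2 to 89.8% of values of up to 5 fragments were whole fragments (tolerance 0.05) when the genomic span was taken as gene length and 0.01 was subtracted, and depth and fragments were inferred from this. The methods describe FPKM as scaled to the exon model, which differs from this reading of the values. Whether intronic fragments were counted is not given in the sources used here, nor is the origin of the 0.01.

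Log2 FPKM, with nothing added, of the 7967 genes whose geometric mean reached 0.1 FPKM was fitted by group means in limma 3.58.1 (R 4.3.3, empirical Bayes with trend, two-sided, Benjamini-Hochberg over all genes tested). A call needed an adjusted p under 0.05 and a fold change beyond 2. Exact permutation of 3 against 3 libraries cannot go below p = 0.1 and was not used for calls. Calculations and plots used Python 3.11.15, numpy 2.4.6, pandas 2.3.3, scipy 1.17.1 and matplotlib 3.10.9, and the fit was tested on simulated data. Alternatives covered the pseudocount, the filter, quantile normalization, fits of the groups compared, replicate blocks and leaving out each replicate. After the data had been seen, limma-voom on recovered fragments (mean of at least 10 per library), a fit without the two-cell M libraries and the differences between M-phase steps were added.

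Members, lists and tests were chosen with earlier results of these data known. Named genes were all 7 members, from each list up to 2 called genes with the largest polysome change per M-phase comparison among those averaging 1 FPKM or more, and the 3 genes most like Gdf9 and Bmp15 by Pearson r. Replicate letters were not taken as pairs across stages, since correlations of deviations between same-letter libraries of different stages ran from -0.09 to 0.157. Between the 2 fractions of 1 stage and letter they ran from -0.0063 to 0.167 (18 pairs, median 0.083, 6 over 0.1). Counting intervals cover counting error only.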

Additional observations from a re-analysis of the deposited data

Results flagged for a closer look

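The results below differed between the fractions or between the M-phase steps by a test of the difference itself, and they are given as values only. The change of Bmp15 between two-cell and two-cell M differed between polysomes and the non-polysome fraction by 4.49 on the log2 scale, and its change between MII and two-cell M by 5.32. Neither was called by limma-voom or in the fit of the groups concerned, and quantile normalization lost the first of them. In polysomes, the change in meiotic maturation minus that in the first mitosis was 7.16 for Fgf8, 8.26 for Plat and -7.14 for Rln3. The change in maturation minus that in the second mitosis was 13 for Fgf8, 9.04 for Plat and 3.06 for Rln3. The Rln3 value became -2.09 with 1 FPKM added to each value. Its call was lost without some single libraries, such as two-cell replicate B (2.30, limma adjusted p = 0.101). The change in the first mitosis minus that in the second was 5.87 for Fgf8, 5.90 for Oosp1 and 10.2 for Rln3. The Fgf8 call was lost without any of the zygote or zygote M libraries and without some two-cell and two-cell M libraries. It was also lost with quantile normalization, with the replicate block and without a filter. The values that involve the second mitosis rest on two-cell M libraries in which Fgf8 and Rln3 had few or no fragments. Oosp1 held 1 fragment in two-cell M polysome replicate A, and without that library its value was 3.48 and still called. Plat held 3 and 2 fragments in two-cell M polysome replicates A and C.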

How the results depend on the processing

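Of 210 member values, 59 were called, 45 of these were called with each replicate left out in turn and 41 under each other alternative, and 48 uncalled values were called under at least 1 alternative other than leaving out a replicate. The cause of these differences was not tested. Percentages in brackets are shares of all genes called in the same fit. Members called in MII minus GV polysomes went from 2 (6.11%) to 4 with 0.1 (13.4%) or 1 FPKM (20.1%) added, quantile normalization (19.4%), only the groups compared (27.1%), or limma-voom (5.55%). With 0.1 added, two-cell polysome minus non-polysome had 1 call (18.4%), and list genes went from 0 to 1 (MII minus GV) and 1 to 2 (zygote M minus zygote). With 1 added there were 4 calls in non-polysome MII minus GV (25.1%), 2 in each fraction for zygote M minus zygote (11.3% and 10.9%), 5 and 4 for zygote minus GV (16.4% and 20.8%), 4 in polysomes for two-cell minus GV (22.7%), 2 between fractions in GV (12%) and in two-cell (15.7%), 2, 1 and 1 for the difference of changes (two-cell M minus two-cell, 5.4%; zygote minus GV, 0.151%; two-cell minus GV, 6.1%), 5 for first against second mitosis (24.3%), and 4, 2 and 7 list genes. With quantile normalization polysomes had 2 calls in zygote M minus zygote (14.6%) and in zygote minus GV (17.7%), two-cell M had 2 between fractions (7.86%), and lists had 3 and 2. Quantile normalization moved the all-gene median of polysome two-cell M minus two-cell by 1.39 and of two-cell M minus MII by 2.51 (non-polysome 3.35).

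With only the groups compared, there were 4 calls in non-polysome MII minus GV (22.7%), 6 and 3 in zygote M minus zygote (33.1% and 10.5%), 6 and 5 in zygote minus GV (31% and 21.3%), 4 in polysome two-cell minus GV (20.6%), 5 in polysome zygote M minus MII (40.6%), 4 in each fraction for two-cell M minus two-cell (20.9% and 11%; 6 with all libraries), 5 in polysome two-cell M minus MII (49%; 7 with all libraries), 1, 2, 2, 1 and 0 between fractions in GV (4.26%), MII (6.45%), zygote (20.1%), two-cell (6.89%) and two-cell M (0.238%), 1 each for the difference of changes in zygote (0.54%) and two-cell (1.09%) minus GV, 0 for both two-cell M differences (1.37% and 2%), and 3, 7 and 9 list genes. Limma-voom, added after seeing the data, gave 5 in non-polysome MII minus GV (15.9%), 2 and 3 in zygote M minus zygote (4.62% and 12.6%), 7 and 5 in two-cell M minus two-cell (26.5% and 22.5%), 3 and 4 in zygote minus GV (4.16% and 15.4%), 5 in polysome zygote M minus MII (10.2%), 2, 1 and 0 between fractions in GV (5.93%), two-cell (13.4%) and two-cell M (8.15%), 0 for both two-cell M differences of changes (4.94% and 2.65%), and 2, 4 and 23 list genes. Without two-cell M, also added, there were 4 in non-polysome MII minus GV (26%), 4 and 3 in zygote M minus zygote (11.3% and 16.2%), 4 and 4 in zygote minus GV (12.3% and 23.2%), 5 in polysome zygote M minus MII (19.5%), 2, 1 and 1 between fractions in GV (12.3%), zygote (4.22%) and two-cell (26.1%), 1 each for the differences of changes in zygote (0.389%) and two-cell (7.54%) minus GV, and 3 and 2 list genes. Without a filter lists had 1 and 2 calls, and with a mean of at least 1 FPKM 1 (MII minus GV) and 9 (two-cell M minus two-cell). Without a filter 5 member calls were lost: non-polysome Plat in two-cell M minus two-cell, non-polysome Gdf9 in zygote M minus MII, Bmp6 in two-cell M minus MII in both fractions, and Fgf8 in the first against the second mitosis. Quantile normalization lost that Plat and that Fgf8 call, Rln3 in maturation against the second mitosis and Bmp15 in the two-cell M minus two-cell difference of changes, and 0.1 added lost both Bmp6 calls and that of Rln3.

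With the replicate letter as a block, polysome zygote M minus zygote went from 1 call to 0, and non-polysome Plat in two-cell M minus two-cell, polysome Bmp6 in two-cell M minus MII and Fgf8 in the first against the second mitosis were lost. With the gradient as replicate block there was 1 call between fractions in GV (4.18%) and in two-cell (16%), 2 in two-cell M (14.6%) and 1 for the difference of changes in two-cell minus GV (1.56%). The letters were not shown to pair samples of different stages. With single replicates left out, member counts ran from 0 to 1 in zygote M minus zygote (polysomes 0 throughout) and polysome zygote minus GV, 1 to 2 in non-polysome zygote minus GV and for the two-cell M minus two-cell difference of changes, 0 to 1 and 1 to 2 between fractions in two-cell and two-cell M, and 2 to 5 for maturation against the second mitosis. With 1 added, the sign changed for Rln3 in maturation against the second mitosis (-2.09) and for Plat in the first against the second mitosis (-2.25), and with quantile normalization for Bmp6 in two-cell M minus MII (polysome 1.2, non-polysome 1.62). Fold changes of low genes depend on the 0.01 at which a gene without fragments stands, and depth was lowest in two-cell M.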
